A study of Mus musculus with 20 samples.

Results

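H3K4me3 was compared between hematopoietic progenitors of WT mice and of mice whose Ep300 gene had been deleted, by the presence of a called peak. The H3K4me3 peak lists of the 2 genotypes, 1 library each, were merged on the autosomes. Merged regions were classed as lost where the Ep300-deleted list had no peak overlapping by 1 bp, as gained where the WT list had none, and as retained otherwise. The merged list held 26785 regions, out of 129973 regions in the union of the 12 peak lists of the series. Of these, 3746 were lost, 2597 were gained, and 20442 were retained.

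The cells were Lin- bone marrow cells, that is, bone marrow depleted of cells carrying surface markers of mature lineages, with a stated purity over 80%. Ep300Δ/Δ mice carried the Mx1-Cre transgene and floxed Ep300 alleles (Mx1-Cre;Ep300 fl/fl), and WT mice were Ep300 fl/fl without Cre. Both groups received 3 doses of poly(I:C) at 6 to 8 weeks of age, so the interferon inducer that switches on Mx1-Cre was shared by the control. Mx1-Cre is interferon inducible and not restricted to blood cells, and the number of mice behind a library is not given in the sources used here. The methods give 2 weeks after poly(I:C) as the usual time of the experiments and name no other for these libraries. The lists of Tet2-/- and Ep300Δ/ΔTet2-/- cells, 1 library each, were used as a second pair that shares no library with the first. Each genotype had 1 library per mark, so no value below has a replicate error, and the intervals given are exact Clopper-Pearson 95% intervals that cover counting error only.

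H3K4me3 marks the starts of transcribed and transcription-competent genes, and at CpG-rich promoters it is laid down by SET1 and MLL complexes, whose subunits bind unmethylated CpG. p300, the product of Ep300, is an acetyltransferase that writes H3K27ac at active enhancers and promoters together with its paralog CBP. H3K4me1 is the methylation state typical of enhancers, with or without H3K27ac.

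The lineage labels were checked first. The 13 progenitor markers on the autosomes, such as Kit, Cd34, and Gata2, carried an H3K4me3 peak within 1000 bp of a start in both genotypes. Of 16 markers of mature or nonblood cells, 12 had no peak in either genotype, 1 had one in both, 1 had one only in WT, and Cr2 and Ncr1 had one only in Ep300Δ/Δ. Ep300 itself kept its promoter peak in both lists (fold enrichment over the H3 background 37.5 in WT and 55.9 in Ep300Δ/Δ), so the peak lists gave no check of the deletion. The Ep300Δ/Δ list was called with less significance: its median −log10 q was 42.4 against 63.5 in WT, and 263 of its peaks had a q value over 0.05 against 35 in WT. The part of that difference in the results below was not tested.

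Sequences upstream of some lost and gained genes are shown for their CpG content. Lost and gained promoters differed in CpG content, and the following 200 bases upstream of RefSeq starts (GRCm38.p6, 5′ to 3′ on the strand of the gene) have CpG dinucleotides in capitals. The lost ones belong to lymphoid and granulocyte genes, Dntt (terminal deoxynucleotidyl transferase), Rag2 (antigen receptor recombination), Igll1 (surrogate light chain), and S100a9 (calprotectin subunit).
Dntt, chr19:41029075-41029274, plus strand: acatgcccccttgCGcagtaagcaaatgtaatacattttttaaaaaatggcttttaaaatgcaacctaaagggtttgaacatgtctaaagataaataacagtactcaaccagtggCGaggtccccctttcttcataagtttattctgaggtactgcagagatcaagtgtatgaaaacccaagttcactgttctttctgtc
Rag2, chr2:101624512-101624711, plus strand: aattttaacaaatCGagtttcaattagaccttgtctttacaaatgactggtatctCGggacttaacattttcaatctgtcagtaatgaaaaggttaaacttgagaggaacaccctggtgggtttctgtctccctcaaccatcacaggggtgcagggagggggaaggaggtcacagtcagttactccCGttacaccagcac
Igll1, chr16:16863986-16864185, minus strand: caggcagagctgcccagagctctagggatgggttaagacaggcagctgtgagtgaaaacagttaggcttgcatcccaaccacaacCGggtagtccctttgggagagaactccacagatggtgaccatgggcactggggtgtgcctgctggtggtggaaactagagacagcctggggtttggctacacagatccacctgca
S100a9, chr3:90695722-90695921, minus strand: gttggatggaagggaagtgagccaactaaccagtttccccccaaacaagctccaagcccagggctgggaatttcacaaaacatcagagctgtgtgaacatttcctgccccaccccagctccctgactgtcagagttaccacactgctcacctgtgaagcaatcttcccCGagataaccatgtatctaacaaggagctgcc

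The gained ones belong to transcription factor genes of embryonic patterning, Foxd3 and Foxa2.
Foxd3, chr4:99656099-99656298, plus strand: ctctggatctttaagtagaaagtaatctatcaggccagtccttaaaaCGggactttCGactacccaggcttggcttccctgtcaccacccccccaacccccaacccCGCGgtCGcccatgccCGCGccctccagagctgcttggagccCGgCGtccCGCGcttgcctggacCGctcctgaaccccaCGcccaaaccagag
Foxa2, chr2:148045949-148046148, minus strand: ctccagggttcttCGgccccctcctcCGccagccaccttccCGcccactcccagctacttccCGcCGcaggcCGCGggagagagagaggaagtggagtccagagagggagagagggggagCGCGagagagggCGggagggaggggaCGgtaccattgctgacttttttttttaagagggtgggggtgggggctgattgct

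These windows held 2 CpG dinucleotides at Dntt, 3 at Rag2, 1 at Igll1, and 1 at S100a9. They held 13 at Foxd3 and 11 at Foxa2. The H3K4me3 peaks overlapped the printed bases at Rag2 and Foxa2 and lay downstream of them at the other 4 genes.

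Lost regions were weak, narrow peaks. Of 24188 WT regions, 15.5% were lost (95% interval 15.0 to 15.9), and of 23039 Ep300Δ/Δ regions, 11.3% were gained (10.9 to 11.7). Lost regions had a median width of 335 bp, gained regions 290 bp, and retained regions 1186 bp. Lost regions sat at a median percentile of 13.5 within the WT list ranked by fold enrichment, and gained regions at 14.3 within the Ep300Δ/Δ list. By quartile of WT fold enrichment, 49.7% of the weakest regions were lost, 12.1% of the second quartile, 0.149% of the third, and 0 of 6047 in the strongest, which allows up to 0.0610%. The same order held for gains, with 37.2%, 7.76%, 0.122%, and 1 of 5760 regions. Only 10 lost and 15 gained regions had their own peak above the median of its list.

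The excess of losses over gains depended on the length of the lists. The WT list of 25516 peaks was cut to its 24266 strongest by q value, the full length of the Ep300Δ/Δ list. With these lists of equal length, 2890 regions were lost and 2944 gained. When both lists were held to a −log10 q of 5 or more, 4077 were lost and 1352 gained. No direction of net change was therefore read from the counts. At the edge of the rule, 108 lost regions had an Ep300Δ/Δ peak within 100 bp, and 14 retained regions shared less than 100 bp.

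Lost regions lay away from annotated starts. A transcript start fell inside 7.39% of lost regions (6.58 to 8.28), 18.2% of gained regions (16.7 to 19.8), and 62.2% of retained regions (61.5 to 62.9). Within 3000 bp the shares were 52.3%, 65.7%, and 80.5%. The median distance to the nearest start was 2707 bp for lost and 1237 bp for gained regions. Of the 1786 lost regions beyond 3000 bp, 48.9% were intronic and 41.4% intergenic, whereas 50.2% of the retained distal regions were intergenic. In all, 36.5% of lost and 32.9% of gained regions lay within 1000 bp of a retained region.

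Gene types differed between the classes. Among regions with a start within 1000 bp, 20.8% of lost regions (18.3 to 23.4) had no protein-coding gene there, against 13.2% of gained (11.3 to 15.3) and 6.46% of retained regions (6.07 to 6.87). Long noncoding genes were at similar shares of the 3 classes, 16.4%, 17.2%, and 15.4%. Pseudogenes were at 3.40% of lost and 3.49% of gained regions against 1.85% of retained ones.

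Lost regions were less often CpG rich than gained ones. A summit was called CpG rich when it and the 100 bp on either side held at least 8 CpG dinucleotides. This was so for 12.3% of lost regions (11.3 to 13.4), 41.4% of gained regions (39.5 to 43.3), and 66.9% of retained regions (66.3 to 67.6), with medians of 4, 6, and 11 CpG dinucleotides. From Tet2-/- to Ep300Δ/ΔTet2-/- cells the gap was smaller, with 18.2% of lost, 25.7% of gained, and 63.4% of retained regions CpG rich. Near a start, within 1000 bp, the shares from WT to Ep300Δ/Δ were 19.9%, 64.0%, and 80.6%. Losses were more frequent at CpG-poor summits within peaks of similar strength. In the weakest WT quartile, 57.9% of CpG-poor but 25.1% of CpG-rich regions were lost, and in the second quartile 17.7% and 3.47%. Gains in the weakest Ep300Δ/Δ quartile went the other way, with 33.9% of CpG-poor and 44.4% of CpG-rich regions gained. Within weak peaks of this list, gained regions were thus more often CpG rich than retained ones. The order was reversed in the weakest Ep300Δ/ΔTet2-/- quartile, with 34.7% of CpG-poor and 28.8% of CpG-rich regions gained from Tet2-/- cells.

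**Figure D1:**
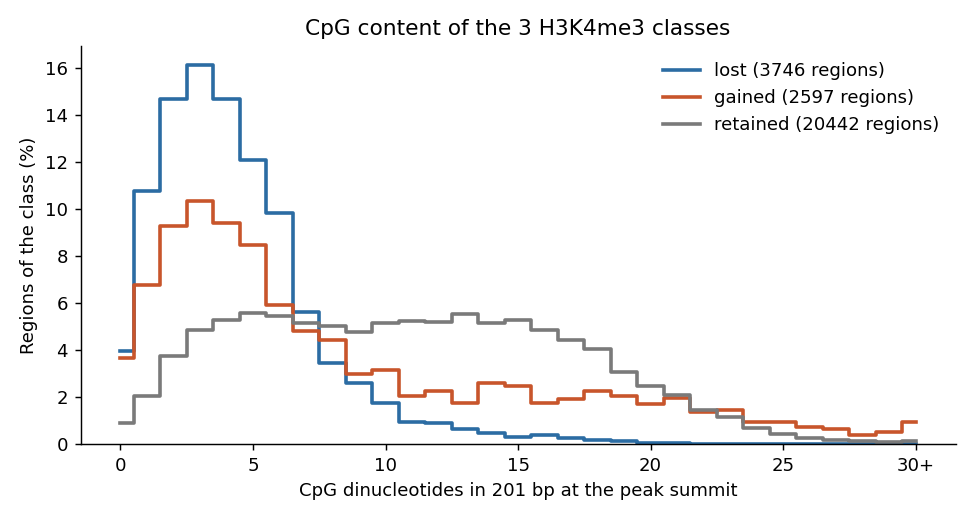
CpG dinucleotides within 100 bp of the peak summit (x axis, count) against the share of regions in each class (y axis, percent), with 1 line per class and the last bin holding all higher counts. Lost regions gather at low counts with a median of 4, retained regions are centered higher with a median of 11, and gained regions have a low peak and a long upper tail.

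**Figure D2:**
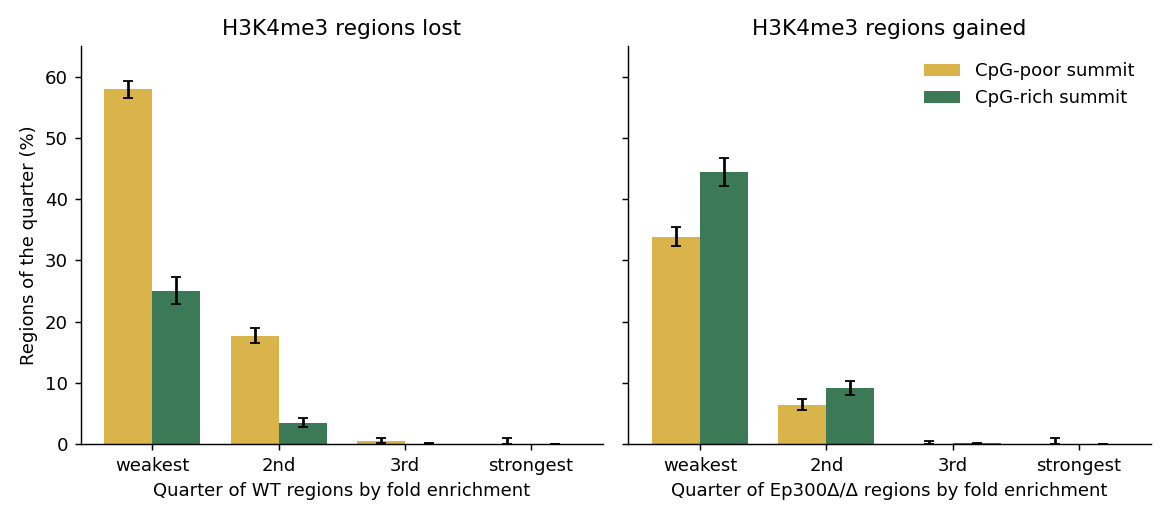
Share of regions lost (left, of WT regions) and gained (right, of Ep300Δ/Δ regions) in each quartile of fold enrichment in their own list, for CpG-poor and CpG-rich summits. Bars are percentages and error bars exact 95% intervals for counting error. Losses are more frequent among CpG-poor summits (57.9% against 25.1% in the weakest quartile) and gains among CpG-rich ones (44.4% against 33.9%).

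CpG counts of promoters gave the same order. Of 31365 RefSeq promoters on the autosomes (300 bp each), 306 had H3K4me3 within 1000 bp of the start in WT only and 583 in Ep300Δ/Δ only. Their median CpG counts were 5 and 16, against 21 in promoters marked in both genotypes, 3 in unmarked promoters, and 7 in all promoters. The letters GGGCGG, which SP and KLF factors bind, were found on either strand in 19.6% of lost, 51.8% of gained, and 36.0% of all promoters, with 64.7% of promoters marked in both genotypes and 12.2% of unmarked ones. AGATAA, the GATA letters, were in 19.3% of lost, 7.03% of gained, and 11.2% of all promoters, and TGANTCA, the AP-1 letters, in 13.7%, 5.83%, and 7.85%. GAGGAAGT, read by PU.1, was in 5.88% of lost, 1.89% of gained, and 3.25% of all promoters. TGTGGT, the RUNX letters, were in 22.5% of lost, 13.6% of gained, and 16.7% of all promoters. The other motifs among the 12 searched did not separate lost from gained promoters in this way. CCGGAAGT, the ETS letters, were in 0.980% of lost, 0.686% of gained, and 3.95% of all promoters, with 8.01% of promoters marked in both genotypes. CCAAT, read by NFY, was in 34.3%, 30.9%, 37.3%, and 36.7%. Unmarked promoters, which are CpG poor as well, held AGATAA in 15.3%, TGANTCA in 10.5%, and TGTGGT in 20.3%. Within 100 bp of the region summits the contrast was smaller or absent, with TGANTCA in 5.39% of lost, 5.12% of gained, and 3.76% of all regions and GAGGAAGT in 1.90%, 2.12%, and 1.53%. AGATAA was in 7.21%, 5.89%, and 4.49% there, TGTGGT in 16.9%, 13.5%, and 11.6%, and GGGCGG in 9.13%, 20.1%, and 22.6%.

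Lost regions had fewer H3K27ac peaks in Ep300Δ/Δ than in WT. Of lost regions, 33.7% (32.2 to 35.3) carried an H3K27ac peak in WT and 15.8% (14.6 to 17.0) in Ep300Δ/Δ. Retained regions went from 59.7% to 55.2%. Gained regions were mostly without acetylation, 9.51% in WT and 9.09% in Ep300Δ/Δ, and 87.3% of them had H3K27ac in neither genotype. Among regions acetylated in WT, 56.1% of lost regions (53.3 to 58.9), 38.1% of gained regions (32.0 to 44.4), and 12.9% of retained regions (12.3 to 13.5) had no H3K27ac peak in Ep300Δ/Δ. Near starts the shares were 54.7%, 41.3%, and 9.31%, and beyond 3000 bp 53.0%, 36.2%, and 26.4%. The Ep300Δ/Δ H3K27ac list was the shorter, 22190 against 29012 peaks, and with lists of equal length the shares were 47.3%, 25.4%, and 8.73%.

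Most lost regions had H3K4me1 in both genotypes (66.7%). The mark was present at 79.4% of lost regions in WT (78.1 to 80.7) and 71.0% in Ep300Δ/Δ (69.5 to 72.4), and 56.1% of lost regions carried H3K4me1 without H3K27ac in Ep300Δ/Δ. At gained regions H3K4me1 was at 54.5% in WT and 67.6% in Ep300Δ/Δ, with 18.4% having it only in Ep300Δ/Δ against 5.35% only in WT. Retained regions stayed near 80%, at 78.8% and 80.4%. Neither mark in either genotype was found at 14.4% of lost, 26.0% of gained, and 5.53% of retained regions.

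The Tet2-null pair showed the same direction for losses. Of the lost regions, 50.6% (49.0 to 52.2) had an H3K4me3 peak in Tet2-/- cells and 30.7% (29.2 to 32.2) in Ep300Δ/ΔTet2-/- cells. Gained regions had a peak in 46.5% and 54.0%, and retained regions in 95.8% and 94.96%. Among regions marked in Tet2-/- cells, 52.3% of those lost from WT to Ep300Δ/Δ were absent in Ep300Δ/ΔTet2-/- cells, against 24.2% of gained and 2.69% of retained regions. Since lost and gained regions are both weak, the comparison between them is the closer one. A peak only in Ep300Δ/ΔTet2-/- cells was found at 18.8% of gained and 6.57% of lost regions.

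**Figure D3:**
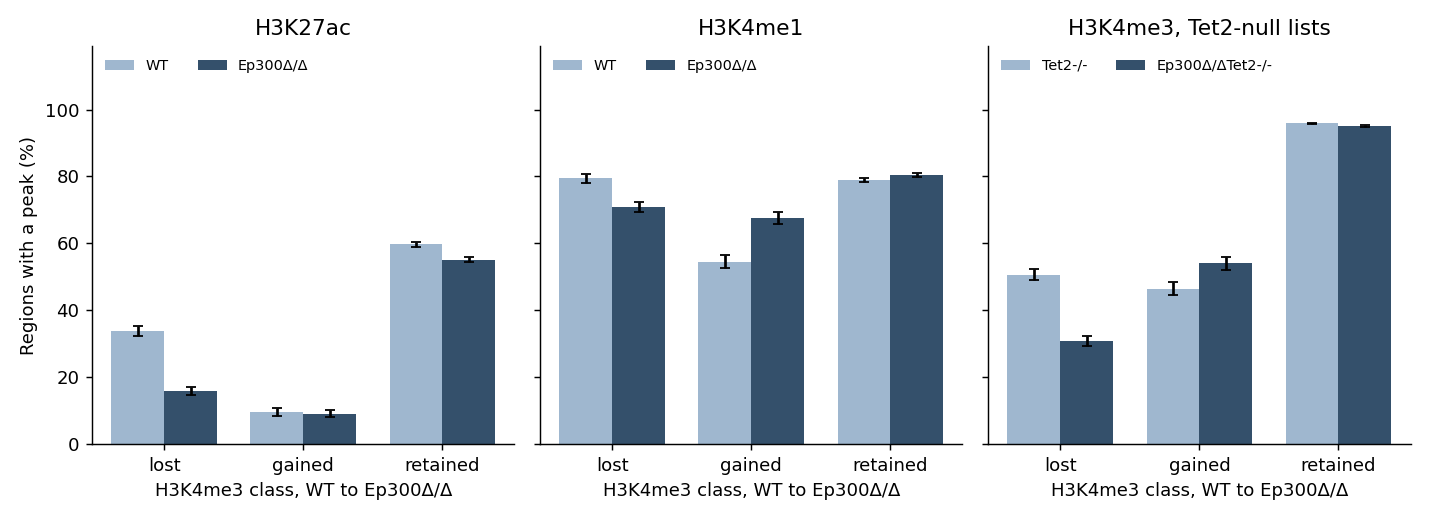
Share of lost, gained, and retained H3K4me3 regions (x axis, classes from WT to Ep300Δ/Δ) that overlap a peak of H3K27ac (left), of H3K4me1 (middle), and of H3K4me3 in the Tet2-null lists (right). Bars are percentages, pale without and dark with the Ep300 deletion, and error bars are exact 95% intervals for counting error. Lost regions drop from 33.7% to 15.8% for H3K27ac and from 50.6% to 30.7% in the Tet2-null lists, while gained regions go from 54.5% to 67.6% for H3K4me1.

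Genes were classed by a peak within 1000 bp of any annotated start. Of 12806 protein-coding genes marked in WT, 173 (1.35%) had no peak at any start in Ep300Δ/Δ, and of 13086 marked in Ep300Δ/Δ, 453 (3.46%) had none in WT. Another 12633 were marked in both and 7548 in neither. Of the strongest peaks of the 173 lost genes, 158 lay in lost regions and 15 in retained regions whose Ep300Δ/Δ peak ended farther than 1000 bp from the start. The lost genes were CpG rich at the peak in 35.8% of cases, the gained genes in 85.0%, and the genes marked in both in 88.8%. An H3K27ac peak at the starts was present at 39 lost genes in WT and 13 in Ep300Δ/Δ, and at 13 gained genes in each. With a −log10 q of at least 5 in both lists, the counts were 274 lost and 307 gained.

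B lymphoid genes had the highest share of losses among the hematopoietic lists. Of 13 marked in WT, 5 were lost (38.5%, against 1.35% of all marked coding genes), among them Dntt, Igll1, Il7r (interleukin 7 receptor), and Rag2. Dntt had a WT fold enrichment of 6.47 (chr19:41029908-41030438) and the 25.0 percentile of the list. Il7r had 5.12 (percentile 15.5), Rag2 4.36 (9.57), and Igll1 3.53 (3.70). These 4 were weak WT peaks, and none had a called peak in Ep300Δ/Δ. The 1.35% covers genes of all strengths. Of all WT regions in the weakest quartile with a start within 1000 bp, 37.5% were lost. The lists do not measure how many B lineage cells each library held, and their part in these losses was not tested. H3K4me1 was called in both genotypes at Igll1 and Rag2, only in WT at Il7r, and only in Ep300Δ/Δ at Dntt.

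Other B lineage promoters had a peak in both lists. Vpreb1, the partner of Igll1 in the surrogate light chain, had 40.6 in WT and 37.99 in Ep300Δ/Δ, Cd79b 22.3 and 25.4, and the B cell regulator Ebf1 7.83 and 3.53, the percentile of the latter falling from 31.9 to 5.14. Cr2, a complement receptor of mature B cells, had a peak only in Ep300Δ/Δ (6.08). With the −log10 q threshold of 5 the list had 6 lost of 12, Ebf1 and Bank1 among them, and with lists of equal length 5 of 13. In the Tet2-null pair, where 1.37% of marked coding genes were lost and 1.99% gained, 2 of 8 were lost, among them Dntt, which was marked in Tet2-/- cells (6.23) and not in Ep300Δ/ΔTet2-/- cells.

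Myeloid genes lost the mark at 2 of 27, Ngp (neutrophilic granule protein, WT 4.88) and S100a9 (WT 4.11). S100a9 also had an H3K27ac peak in WT (7.42) and none in Ep300Δ/Δ, and was marked in Tet2-/- (5.18) but not in Ep300Δ/ΔTet2-/- cells. Mpo, the myeloperoxidase gene, was marked in both (19.1 and 13.6), as was the elastase gene Elane (8.84 and 4.48, percentiles 35.5 and 13.04). Cebpe, a regulator of granulocyte maturation, had 22.6 and 13.7. The 2 losses were 7.41% of the list, against 1.35% of all marked coding genes. There were 4 losses of 27 at a −log10 q of at least 5, S100a8 and Siglech being added.

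Receptor families were tallied after their values were seen, because members had been lost, so their counts are a description only. Of 27 interleukin receptor genes marked in WT, 5 were lost, against 1.35% of all marked coding genes: Il5ra, Il7r (also counted among the B lymphoid genes), Il18rap, Il22ra1, and Il1rn, the last an antagonist caught by its name. Il5ra, the interleukin 5 receptor of eosinophils, was the strongest (21.6, percentile 55.7), had 12.7 in Tet2-/- cells, and 2.67 in Ep300Δ/ΔTet2-/- cells. Of 20 chemokine and chemokine receptor genes, 5 were lost: Ccl4, Ccr7, Ccr10, Cxcr2, and Xcl1, with WT values of 3.83 to 6.42. Ccr1 had a peak only in Ep300Δ/Δ (4.197). In the Tet2-null pair 1 of 25 interleukin receptor and 2 of 24 chemokine genes were lost.

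Progenitor and housekeeping lists kept H3K4me3, as did most marked genes. Of all 12806 coding genes marked in WT, 12633 were marked in both genotypes and 1.35% were lost. Few or no losses in lists of this size are therefore near the share over all genes. Of 33 stem and progenitor regulators, 31 were marked in both, Ly6a in neither, and Hoxa10 only in Ep300Δ/Δ. All 20 marked erythroid genes, 24 immediate early genes, 19 histone acetyltransferase and bromodomain genes, 24 genes of H3K4 methylation enzymes, 30 proteasome genes, and 72 ribosomal protein genes were marked in both. The immediate early gene Egr3 was lost at a −log10 q of at least 5. Of 60 replication histone genes marked in WT, 2 were lost (3.33%, against 1.35% of all marked coding genes), Hist1h1t and Hist1h4n, and with lists of equal length 1 of 59. Tet2 was marked in both lists (53.8 and 49.4), and so was Notch1 (47.9 and 32.96).

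Some patterning genes had a peak only in Ep300Δ/Δ. Of 26 developmental regulators of other tissues marked in Ep300Δ/Δ, 5 were gained (19.2%, against 3.46% of all marked coding genes): Foxa2 (5.81), Six2 (4.25), Foxd3 (4.15), Pax3 (4.11), and En2 (4.08). A further 30 of 56 had no peak in either list. None of the 5 had H3K27ac in either genotype, and Foxd3 had H3K4me1 only in Ep300Δ/Δ (7.36). The count depended on the peak threshold. At a −log10 q of 5 or more in both lists, 1 gene was gained (Foxa2) and 3 were lost (Foxa1, Lhx2, and Pax2). In the Tet2-null pair 2 were gained and 5 lost.

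Hox genes, tallied as a family after the values were seen, had 5 gains among 19 and no loss, against 3.46% gained among all marked coding genes. In the Tet2-null pair the family had 2 gains and 1 loss. Hoxa10 had 8.08 (percentile 34.8), Hoxb6 6.53, Hoxa5 6.40, Hoxd1 4.93, and Hoxa2 3.85. Hoxa10 was also on the list of progenitor regulators. Hoxa7 and Hoxa9 were marked in both (46.8 and 27.3, and 25.7 and 30.7). Of the Hoxb genes, 5 were marked in both, among them Hoxb4 (18.8 and 33.4), Hoxb5 (7.49 and 12.1), and Hoxb3 (7.01 and 7.36). Hoxb6 was marked in Tet2-/- (5.90) and Ep300Δ/ΔTet2-/- cells (6.47), and Hoxa5 only with the Ep300 deletion (4.53 in Ep300Δ/ΔTet2-/- cells). With a −log10 q of at least 5, the Hox family had 3 gains and 1 loss (Hoxa13).

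T and NK genes had 5 gains of 15: Bcl11b (7.92), a T lineage regulator, Ncr1 (5.24), Klrd1 (3.95), Cd3g (3.88), and Gzmb (3.06). This became 1 gain (Bcl11b) and 1 loss (Zap70) at a −log10 q of at least 5. Megakaryocyte genes had 3 gains of 14: Selp (7.39), Clec1b (5.77), and Tubb1 (3.72). Selp and Tubb1 were marked in both Tet2-null lists. Stromal and endothelial genes had 2 gains of 8, Emcn (8.55) and Col1a2 (3.39), and interferon-stimulated genes 2 of 30, Ifi44 (16.0) and Oas2 (5.09). Over all coding genes marked in Ep300Δ/Δ, 3.46% were gained. With a −log10 q of at least 5, megakaryocyte genes had 2 gains, stromal and endothelial genes 1 gain and 1 loss (Tie1), and interferon-stimulated genes 2 gains and 1 loss (Mx1). The lists do not measure how many T, NK, stromal, or endothelial cells remained after lineage depletion, and their part in the gains was not tested.

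**Figure D4:**
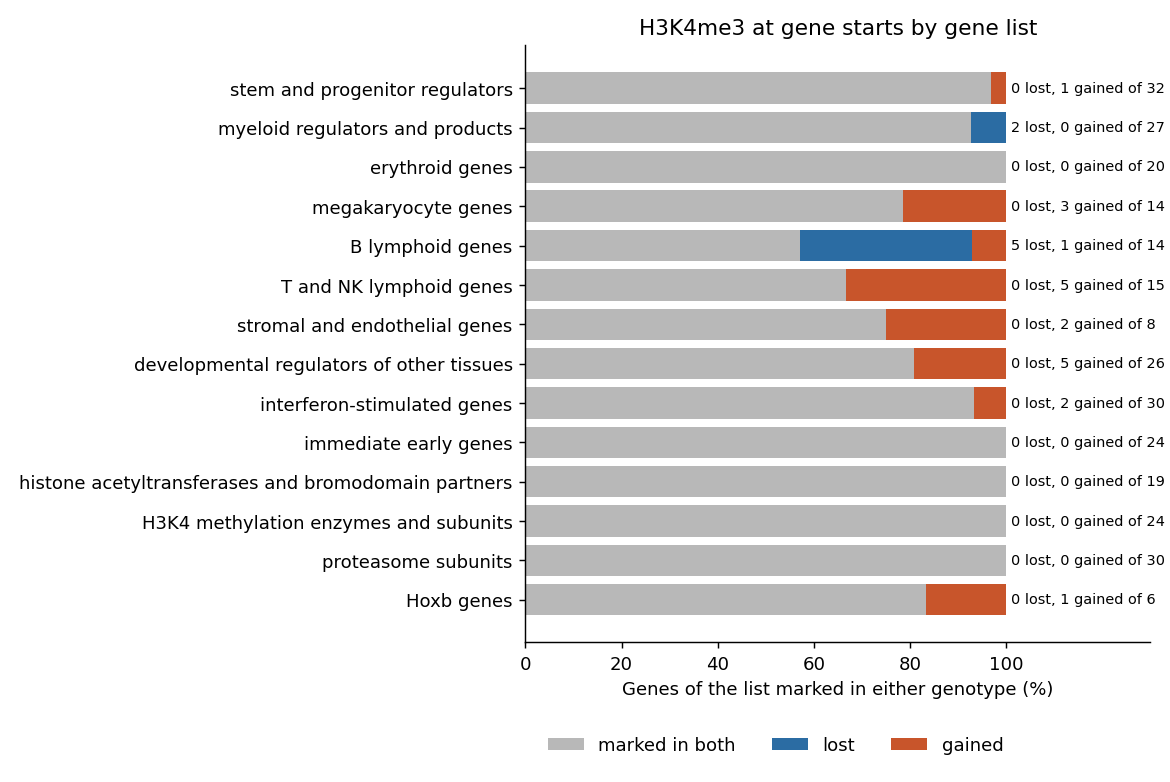
For each gene list (y axis), the share of its genes with H3K4me3 in either genotype (x axis, percent) that was marked in both, lost, or gained, with the counts written beside the bar. B lymphoid genes have 5 losses among 14, developmental regulators 5 gains among 26, and erythroid, immediate early, and proteasome genes neither. Over all marked coding genes, 1.35% were lost and 3.46% gained.

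The strongest lost promoter was Gpr141, an orphan receptor gene (chr13:19823984-19824359), with a WT fold enrichment of 24.5 at percentile 58.2. Its H3K27ac and H3K4me1 peaks were present in WT and absent in Ep300Δ/Δ. In the Tet2-null pair it had 32.5 and 6.95. Nlrp12, an inflammatory regulator of myeloid cells (chr7:3249164-3250118), had 21.6 in WT, with H3K27ac of 16.3 in WT and 4.76 in Ep300Δ/Δ. It was marked in Tet2-/- and not in Ep300Δ/ΔTet2-/- cells. Both summits were CpG poor, with 2 CpG dinucleotides each.

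Among the other strong lost promoters, Cdk5rap1 (22.2) had H3K27ac in WT only, and Cela1 had 2 lost regions (16.0 and 12.6). C1rl (15.4), Mtus1 (14.2), and P2ry14 (13.6), a nucleotide sugar receptor, had no H3K27ac in either genotype, and those of Mtus1 and P2ry14 lay within 1000 bp of a retained region. Of the 10 strongest lost promoter regions, including the 2 of Cela1, all 10 had a peak in Tet2-/- cells and 7 in Ep300Δ/ΔTet2-/- cells. Beyond 3000 bp from a start, the strongest losses had as their nearest annotated gene Mphosph9 (18.5), Ctnnbl1 (17.2), Gm8250 (16.4), Gapt (15.9), and Gm38042 (15.6). H3K27ac was present in WT at 4 of these 5 and in Ep300Δ/Δ at 1, Mphosph9.

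Myb, which encodes a transcription factor needed by progenitors, had 2 lost and 2 retained regions inside the gene and a retained promoter domain. The promoter domain had 52.0 in WT and 50.7 in Ep300Δ/Δ. The retained internal regions, at chr10:21155917-21156671 (3.85 and 6.56) and chr10:21156995-21157291 (9.47 and 6.64), were nearer to the promoter and had peaks in all 4 genotypes. The lost regions lay 14666 bp and 15754 bp downstream of the first annotated start, at chr10:21146185-21146547 (WT 12.97, percentile 45.2) and chr10:21144975-21145620 (WT 6.08). The stronger lay 214 bp from another annotated Myb start, and the weaker contained the start of Gm26577, an antisense gene on the plus strand that was lost on both backgrounds with this peak. Both were called in Tet2-/- cells (5.00 and 6.60) and neither in Ep300Δ/Δ or Ep300Δ/ΔTet2-/- cells. An H3K27ac peak overlapped the stronger region in WT (6.24) and in none of the other 3 genotypes. H3K4me1 was called there in WT (8.998), Tet2-/- (3.22), and Ep300Δ/ΔTet2-/- cells (6.49). A WT H3K27ac peak 6998 bp into the gene (7.91) was likewise called in no other genotype.

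**Figure D5:**
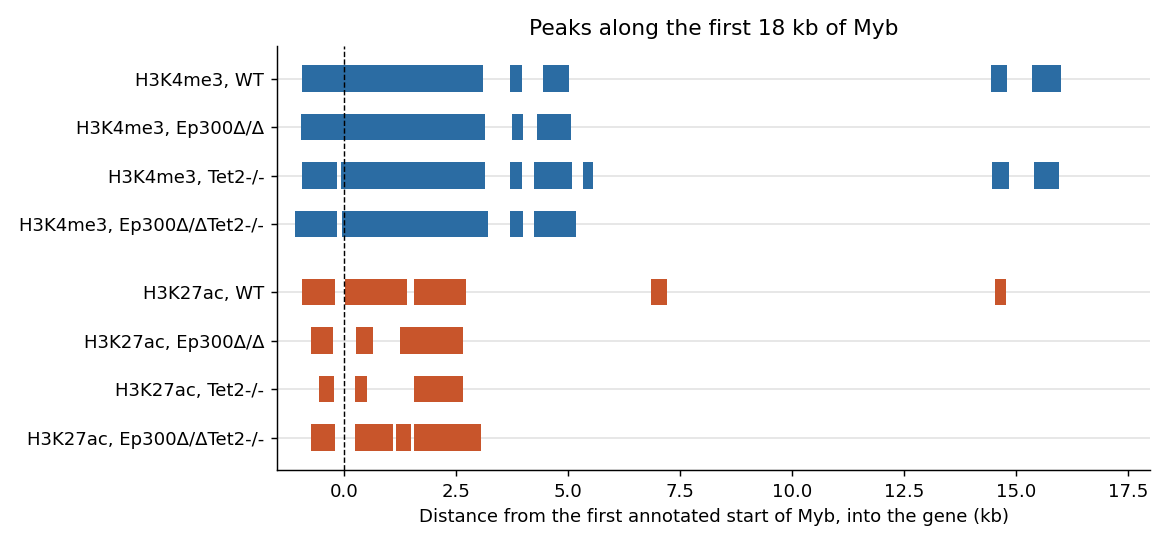
Called peaks of H3K4me3 (blue) and H3K27ac (orange) along Myb in the 4 genotypes (rows), by distance into the gene from its first annotated start in kb (x axis). Bars span the peaks and their height carries no value. The 2 internal H3K4me3 peaks near 15 kb are present in WT and Tet2-/- cells and absent in both genotypes with the Ep300 deletion, while the promoter domain is present in all 4.

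The strongest gain was the shared promoter of Tmem267 and 3110070M22Rik (chr13:119487623-119488420), with 51.2 in Ep300Δ/Δ at percentile 89.7. It had H3K27ac in both genotypes and H3K4me3 in both Tet2-null lists, so WT was the 1 list of 4 without a peak there. Cdcp1 (23.7) gained H3K27ac as well. Asap2 (22.6), Pwp1 (19.1), Arhgef17 (16.7), Zfp951 (16.4), Ifi44 (16.0), and Bace2 (13.8) followed, together with Eid2 (22.4) and Gpr45 (15.2), which lay beside retained regions. Of the 10 strongest gained promoters, 9 had a peak in Tet2-/- cells, and 8 were CpG rich. The strongest distal gains, near Camk2b, Gpx5, Gm8990, Gm23416, and Gm42520, had 14.7 to 15.7.

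Retained regions were slightly narrower in Ep300Δ/Δ. The summed peak width had a median of 1119.5 bp in WT and 1064 bp in Ep300Δ/Δ, and the median ratio was 95.95% (interquartile range 85.8% to 103%). Distal retained regions had a median ratio of 90.3%. Over all retained regions, 1259 were split into more than 1 peak in WT and 1139 in Ep300Δ/Δ. The 500 broadest domains, a set chosen by WT width, had 71 split in WT and 152 in Ep300Δ/Δ. Among retained promoters of coding genes, 52.6% moved by less than 10 percentile points within the list. The largest falls in rank were at Inpp5j (percentile 63.0 to 7.20), Ednra (55.3 to 0.958), Mat2b (98.1 to 49.5), Trim68 (98.7 to 50.3), and Zc3h10 (91.9 to 45.1), and the largest rises at Kif5c (9.21 to 61.7), Myo5c (2.96 to 51.2), Prex2 (4.23 to 51.8), Map1b (3.34 to 48.8), and Rrbp1 (45.9 to 90.8). Inpp5j and Trim68 had H3K27ac in WT and not in Ep300Δ/Δ.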

How the data were processed

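ChIP-Seq was done on Lin- bone marrow cells of 4 genotypes, with 5 µg chromatin, 1 µg antibody, and 10 ng of spike-in chromatin per library. Of 20 samples, 12 have peak lists (H3K4me3, H3K27ac, and H3K4me1, 1 library per genotype and mark), and the 8 others were not used here. The submitters' processing notes name cutadapt 1.15, BWA 0.7.13, Picard, and MACS2 2.1.1.20160309. Reads were aligned to mm10, and peaks were called against the H3 library and kept where pseudoreplicates of the library held them. The notes and methods differ on single- or paired-end reads. The deposited lists give a fold enrichment (ratio) over H3, −log10 P and q values, and a score; the authors' score was not used. They are not scaled by spike-in and give no read counts, so depth is unknown, and a region just under the threshold counts as absent. Fold enrichments were compared only as ranks within a list, and values of 2 lists set side by side are not differences in amount.

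Groups were taken from the sample labels. Lists were merged on 19 autosomes, requiring 1 bp of overlap. Starts were those of all GENCODE M21 (Ensembl release 96) transcripts on GRCm38, the build of the lists. Windows were 1000 bp for genes and 3000 bp for promoters. CpG was counted within 100 bp of the summit of the strongest peak, the WT peak where both lists had one. Promoter sequences came from RefSeq (GRCm38.p6); Mmp9, Pax3, En2, and Hoxb6 were not shown. The values of 1 lost B lymphoid gene are not reported here. Shares have exact Clopper-Pearson 95% intervals. With 1 library per group there was no test and no P value. The overlap and nearest-start functions were checked on simulated intervals: overlap classes equalled those of bedtools 2.31.1 in 10 of 10 simulations. Python 3.11.15, pandas 2.3.3, scipy 1.17.1, and pysam 0.24.0 were used.

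The members and the gene lists were chosen with earlier results of these data known. Named were the Hoxb genes with Ep300, Tet2, Notch1, Myb, and Dntt, the 10 strongest lost and gained promoter regions and the 5 strongest distal ones, the 5 retained promoters with the largest move in rank each way, and list members that lost or gained the mark with up to 4 others per list. Other genes and the receptor, Hox, and other family tallies were chosen after their values were seen. Alternatives varied overlap, peak threshold, list length, windows, and gene assignment.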

Additional observations from a re-analysis of the deposited data

Results flagged for a closer look

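Some values differed in sign on the 2 backgrounds, WT to Ep300Δ/Δ and Tet2-/- to Ep300Δ/ΔTet2-/-, which share no library. None of these differences was tested, since each genotype had 1 library. In the weakest quartile of the lists with the deletion, the share of gained regions among CpG-rich summits minus that among CpG-poor summits was 10.5 percentage points on the WT and -5.87 on the Tet2-null background. The share gained near starts minus the share gained beyond 3000 bp was 9.11 and -0.496 percentage points in the same quartile. On the Tet2-null background these shares were 31.8% near starts (29.9 to 33.7) and 32.3% beyond 3000 bp (30.5 to 34.1), with overlapping intervals, so no difference was shown there.

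Among gene lists, genes gained minus genes lost came to 5 and -2 for T and NK genes, and to 5 and -3 for developmental regulators of other tissues. For homeobox, forkhead, paired, and related families, a tally made after the values were seen, it was 22 and -2. For S100 genes, also tallied afterwards, it was -2 and 1. With a −log10 q of at least 5, these families had 5 gains and 8 losses and the developmental regulators 1 and 3 from WT to Ep300Δ/Δ. In lists of equal length the families kept 25 gains and 3 losses and the developmental regulators 5 and 0, and the cause was not tested. At that −log10 q, T and NK genes had 1 gain and 1 loss and S100 genes no gain and 4 losses.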

How the results depend on the processing

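A peak under the threshold in 1 library is counted as lost, and read depth is not given. The lost and gained counts stayed within 1.5 times of the reported ones with 200 bp of overlap, peaks within 500 bp counted as shared, lists of equal length, peaks counted singly, X and Y included, or q below 0.05. With a −log10 q of at least 5, 1352 regions were gained, and with at least 10, 663. Counting only peaks above the median fold of their list left 10 lost and 15 gained regions. At starts, a 1000 bp window gave 26.7% of lost, 45.2% of gained, and 72.6% of retained regions, coding transcripts alone 39.7%, 53.6%, and 72.2%, and a −log10 q of at least 5 gave 68.6% of gained and 82.7% of retained regions. Assigning the nearest start gave 30.1%, 25.9%, and 18.2% without a coding gene. The share of WT-acetylated regions without H3K27ac in Ep300Δ/Δ was 40.0% of lost, 21.9% of gained, and 11.8% of retained regions with peaks within 1000 bp, 47.3%, 25.4%, and 8.73% with H3K27ac lists of equal length, and 52.5% of lost and 11.5% of retained regions with a −log10 q of at least 5. H3K4me1 within 1000 bp in Ep300Δ/Δ was at 82.0%, 78.4%, and 88.6%. Coding genes lost numbered 274 with a −log10 q of at least 5. With peaks within 500 bp, 34.1% of lost, 14.2% of gained, and 1.93% of retained regions marked in Tet2-/- cells were absent in Ep300Δ/ΔTet2-/- cells. CpG-rich shares were 6.83%, 34.7%, and 64.2% in the 250 bp on either side, 14.7% of lost and 48.7% of gained regions without those beside a retained one, and 14.8%, 50.1%, and 70.9% with a −log10 q of at least 5. The cause of these moves was not tested. The order of the 3 classes by each share was the same under these settings, whereas gained regions outnumbered lost ones with equal lists and above the median. The settings on regions beside retained ones, on q below 0.05, on CpG by threshold or list length, and on gene lists or genes by list length were chosen after seeing the data. No paired analysis was possible because each genotype had 1 library per mark.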

Other observations

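Of 2194 long noncoding genes marked in WT, 108 were lost (4.92%), and of 2224 marked in Ep300Δ/Δ, 138 were gained (6.21%). Pseudogenes had 28 losses among 282 (9.93%) and 37 gains among 291 (12.7%), and small RNA genes 29 losses among 594 (4.88%) and 17 gains among 582 (2.92%). Among protein-coding genes 1.35% were lost and 3.46% gained, the latter within the interval of the small RNA share (1.71% to 4.64%). Reads of near-identical pseudogene copies cannot be told apart from peak lists.

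Families tallied after the values were seen gave further counts. MHC class II genes, which present antigen, had no loss and 2 gains among 10. H2-Aa was one of them (4.33 in Ep300Δ/Δ), was marked in both Tet2-null lists, and had an H3K27ac peak in Ep300Δ/Δ (6.69) and not in WT. At a −log10 q of 5 or more the class had 1 gain among 9 (Cd74), and H2-Aa was not counted. Potassium channel genes had 9 gains among 38 and 3 losses among 32, against 3.46% and 1.35% of all marked coding genes, and 5 gains among 33 and 3 losses among 31 with a −log10 q of at least 5. Clustered protocadherin genes had 4 gains among 12 and 2 losses among 10, and 2 gains and 2 losses, each among 10, at that threshold. Of 1087 olfactory receptor genes, 1081 had no peak in either genotype, with 1 lost and 2 gained.

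Across the 2 backgrounds, which share no library, 42 of the 173 lost coding genes were also lost from Tet2-/- to Ep300Δ/ΔTet2-/- cells. Another 12 were gained, 59 were marked in both lists, and 60 in neither. Of all coding genes marked in Tet2-/- cells, of all strengths, 1.37% were lost. The 12 and the 60 were not marked in Tet2-/- cells, so the 42 of 173 and the 1.37% have different bases. Of the 453 gained genes, 97 were also gained there, 35 were lost, 149 were marked in both lists, and 172 in neither. Of all coding genes marked in Ep300Δ/ΔTet2-/- cells, 1.99% were gained. The 35 and the 172 were not marked in those cells, so these 2 shares also have different bases. Clec4e and Lilra6, receptor genes of myeloid cells, were lost on both backgrounds (WT 6.07 and 7.70, Tet2-/- 2.73 and 4.25).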
